A study of Mus musculus with 46 samples.

Results

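The miR-181 family comprised 4 guide strands in these data, mmu-miR-181a-5p, mmu-miR-181b-5p, mmu-miR-181c-5p and mmu-miR-181d-5p (written below without the species prefix), which were taken by name from the 1881 mouse miRNAs on the array. All 4 were among the 815 miRNAs that were called detected on at least 5 of the 45 arrays analysed, whereas only 2 of the 6 opposite (passenger) arms of the same hairpins were. The study stored pieces of mouse heart, liver and brain for 0 to 96 h at 4 °C or at room temperature (RT) and hybridised the total RNA to 1-colour Agilent miRNA arrays. RNA integrity was recorded as the RNA integrity number (RIN), which runs from 1 for severely degraded RNA to 10 for intact RNA.

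According to the methods, the donors were fresh cadavers of male C57BL6 mice of an Il1a knock-out strain, a genotype that all groups share, so that no wild-type tissue was measured. Their age is not given in the sources used here. The groups were heart at 4 °C (7 arrays), heart at RT (8), liver at 4 °C (6), liver at RT (8), brain at 4 °C (8) and brain at RT (8). A single array carried the RNA of 1 piece of tissue at 1 storage time, and the pieces of a tissue and temperature came from 1 animal and lay on 1 slide. Temperature, animal and slide therefore cannot be told apart, no time point has a replicate, and the p-values measure the spread between pieces. The methods take the 3 tissues of a temperature from the same mouse and the labels name no animal, so differences between tissues rest on 2 animals if the methods hold for these arrays. RNA with a RIN over 6 is called intact here, which held for 13 heart, 6 liver and 14 brain arrays, and the others (2 heart, 8 liver and 2 brain arrays) had RIN values from 2.2 to 6.0. In bulk tissue, fewer cells of a type and less RNA per cell cannot be told apart.

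MicroRNAs are cut from hairpin precursors, and the guide strand directs an Argonaute protein to messenger RNAs that pair with its seed near the 5′ end. The miR-181 family is conserved among vertebrates, is abundant in brain and lymphoid tissue, and is known for setting the sensitivity of T-cell receptor signalling in developing T cells. In heart muscle, miR-181c is known for acting on a mitochondrial cytochrome oxidase transcript.

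The mature sequences from RefSeq are shown because all members carry the same seed and differ in few other bases, which matters for reading probes of so similar targets. They are written 5′ to 3′, and capitals mark the seed, bases 2 to 8.
miR-181a-5p: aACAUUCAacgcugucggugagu
miR-181b-5p: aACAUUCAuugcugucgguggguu
miR-181c-5p: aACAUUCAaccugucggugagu
miR-181d-5p: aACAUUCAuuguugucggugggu

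Of the 1679 mature mouse miRNAs in the RefSeq table, 4 had this seed, and these were the 4 members. Counted from 1 at the 5′ end of miR-181a-5p, miR-181b-5p differed by the substitutions A9U, C10U and A21G and by 1 added base. The strand of miR-181d-5p differed from miR-181a-5p by A9U, C10U, C12U and A21G. The distance between miR-181a-5p and miR-181c-5p was 1 edit, a deleted base written G11-. Counted along miR-181b-5p, miR-181d-5p differed by C12U and by 1 base less at its end. The members thus form the pairs a with c and b with d by sequence, which are not the pairs that share a locus.

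In the GRCm38.p6 annotation the members come from 3 clusters of paired hairpins, and miR-181a-5p and miR-181b-5p are each encoded at 2 loci with identical mature strands. On the plus strand of chromosome 1, the mature miR-181a-5p of Mir181a-1 lies at chr1:137966468-137966490 and the mature miR-181b-5p of Mir181b-1 at chr1:137966650-137966673, with 97 bases between the hairpins. The mature strands of the other copies, Mir181a-2 at chr2:38852741-38852763 and Mir181b-2 at chr2:38853845-38853868, are also on the plus strand and have 1019 bases between their hairpins. The mature strands of Mir181c at chr8:84178924-84178945 and of Mir181d at chr8:84178759-84178781 lie on the minus strand with 85 bases between the hairpins. The chromosome 2 hairpins lie within the span of the protein-coding gene Nr6a1 and of the long noncoding RNA gene Nr6a1os, and 0 other annotated genes overlap the hairpins on chromosomes 1 and 8. The array reads a mature strand without its locus, so the 2 loci of miR-181a-5p, and those of miR-181b-5p, were measured together.

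The values are background-corrected signals that the authors normalized by variance stabilizing normalization and gave as log2 values. Each member was measured by 2 probes, whose ratio differed between members and was least even in liver. The second probe of miR-181a-5p was 2.10 to 2.41 times as bright as the first in heart, and that of miR-181b-5p 1.06 to 1.52 times. For miR-181c-5p the factor in heart was 0.658 to 0.744 and for miR-181d-5p 1.36 to 1.85. In brain it was 2.24 to 3.71 for miR-181a-5p and 0.54 to 0.686 for miR-181c-5p, and in liver, near background, 2.27 to 16.1 and 0.174 to 0.95. Levels of different members are not ordered against each other for this reason, and whether a probe also binds another member was not tested. The arrays had 268 to 798 detected miRNAs and summed signals of 153088 to 541770 units, and 0 of the miRNA spots were saturated. As a check of the labels, 4 of 4 brain, 4 of 4 heart and 3 of 3 liver marker miRNAs were higher on every array of their tissue than on any array of the other tissues.

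By the means of the intact arrays, all 4 members were highest in brain, intermediate in heart and lowest in liver. On the 14 intact brain arrays the log2 level of miR-181a-5p was lowest at 8.92, had a median of 9.36 and was highest at 9.73, and its mean was 9.33 ± 0.26 (SD). On the 13 intact heart arrays it ran from 5.95 over a median of 6.51 to 7.16, with a mean of 6.49 ± 0.32. The 6 intact liver arrays had values of 2.30 to 3.36 and a mean of 2.93 ± 0.44. These ranges did not overlap, and even the most degraded brain sample (96 h at RT, RIN 3.3), at 8.19, lay above every heart array.

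Brain exceeded heart by 2.84 ± 0.14 (log2, SE) in miR-181a-5p, a 7.18-fold difference (limma with the slide as a random block, adjusted p = 2.12e-19). The difference was also called for the other members, so that 4 of 4 were higher in brain, against a background of 47.1% of the 815 miRNAs called higher. The median difference of the members was 2.33, and that of all miRNAs 0.44. For miR-181a-5p, 84.4% of the miRNAs had a smaller difference.

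For miR-181b-5p the intact brain arrays ran from 6.81 to 8.39 (mean 7.60 ± 0.38) and the intact heart arrays from 4.01 to 5.26 (mean 4.64 ± 0.33). The difference of 2.97 ± 0.19, or 7.82-fold, had an adjusted p of 4.26e-16. No brain array of any quality was as low as a heart array, since the lowest brain value was 6.73.

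The chromosome 8 members differed less between brain and heart. Values of miR-181c-5p were 6.69 to 7.65 (mean 7.15 ± 0.31) in intact brain and 5.02 to 6.06 (mean 5.33 ± 0.32) in intact heart, a difference of 1.82 ± 0.16 or 3.53-fold (adjusted p = 1.17e-12). Here the brain sample of 96 h at RT, at 5.98, fell inside the heart range. Those of miR-181d-5p were 5.75 to 6.45 (mean 6.11 ± 0.23) in intact brain and 3.97 to 5.36 (mean 4.45 ± 0.39) in intact heart, a difference of 1.66 ± 0.20 or 3.15-fold (adjusted p = 3.85e-09). Whether the differences of the 2 pairs of members differ from each other was not tested.

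**Figure D1:**
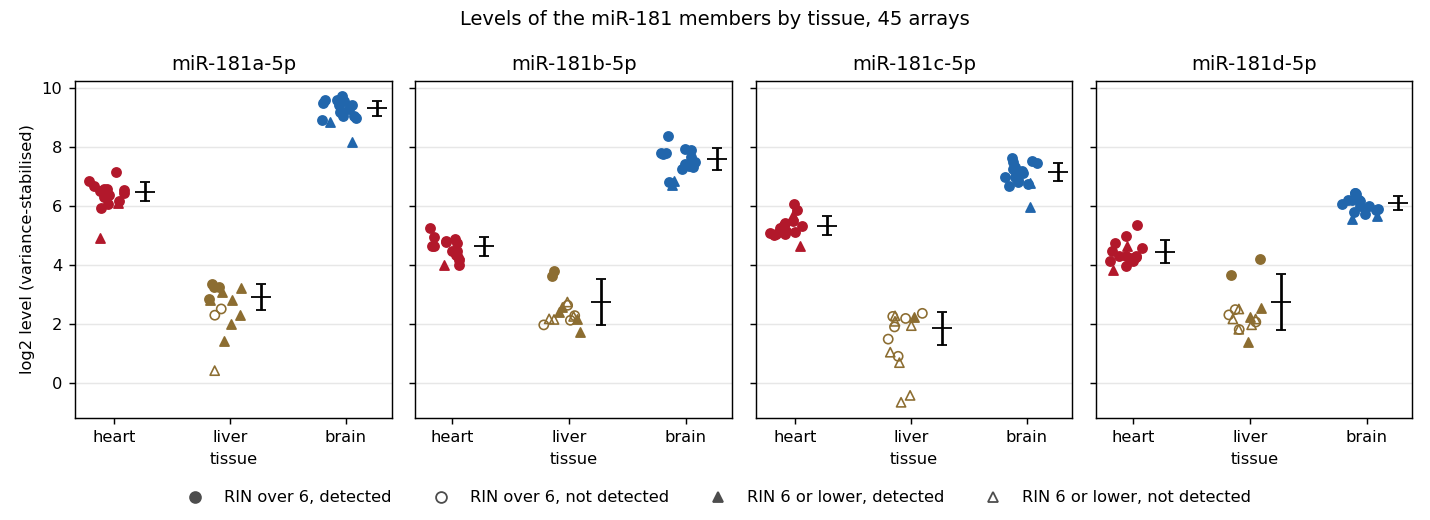
Log2 level (y axis, variance-stabilised) of each miR-181 member on the 45 arrays by tissue (x axis, points spread sideways for sight). Filled symbols are arrays on which the member was called detected, triangles are arrays with a RIN of 6 or lower, and the bars show mean ± SD of the intact arrays (13 heart, 6 liver, 14 brain). Brain lies highest for every member, and most liver points of miR-181b-5p, miR-181c-5p and miR-181d-5p are open.

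In mean level of the intact arrays, brain lay above heart at either temperature for every member. Among intact arrays at 4 °C the mean of miR-181a-5p was 9.19 in 8 brain and 6.47 in 7 heart samples, and at RT it was 9.51 in 6 brain and 6.50 in 6 heart samples. The means of miR-181c-5p were 7.05 and 5.15 at 4 °C, and 7.29 and 5.55 at RT. Intact liver at RT was 1 array, so the place of liver was not compared by temperature. For miR-181d-5p the liver array of 0 h at 4 °C, at 4.21, lay inside the intact heart range of 3.97 to 5.36.

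Liver was at the edge of detection. The software called miR-181a-5p detected on 4 of 6 intact liver arrays, miR-181b-5p and miR-181d-5p on 2 of 6 each and miR-181c-5p on 0 of 6, whereas each member was detected on every heart and brain array. Brain exceeded liver by 6.41 ± 0.17 in miR-181a-5p, 4.85 ± 0.24 in miR-181b-5p, 5.30 ± 0.19 in miR-181c-5p and 3.34 ± 0.25 in miR-181d-5p. Again 4 of 4 were called, with 57.9% of all miRNAs called higher in brain than in liver. Since miR-181c-5p was not detected in intact liver, its level was also compared with a floor on the deposited values. It was 35.1-fold above that floor in brain and 9.94-fold above it in heart. The floor is the mean, over the liver arrays, of the higher of the weakest detected miRNA and the member's own value. It is no strict limit of detection. On the liver array of 3 h at 4 °C, miR-181b-5p was not called detected at 2.64, above the mean floor of 2.02. The normexp correction described below gave smaller differences.

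Heart exceeded liver in 4 of 4 members as well, where 44.9% of all miRNAs were called higher. The differences were 3.57 ± 0.18 for miR-181a-5p (adjusted p = 1.33e-18), 1.88 ± 0.24 for miR-181b-5p (adjusted p = 3.35e-08), 3.48 ± 0.20 for miR-181c-5p (adjusted p = 5.67e-17) and 1.68 ± 0.25 for miR-181d-5p (adjusted p = 6.87e-07). With another background correction (normexp with an offset, then scaling to the 75th percentile), heart minus liver was -0.35 for miR-181b-5p and -0.44 for miR-181d-5p, both called lower, and 0.03 for miR-181c-5p, which was not called. The median of all 815 miRNAs was then -0.77, and the 4 members lay above it by 0.33 to 1.25. The same correction gave smaller differences of brain minus liver, 2.76, 1.39, 1.12 and 0.26 in the order a to d, and of brain minus heart, from 2.27 in miR-181a-5p to 0.71 in miR-181d-5p, all of which were still called higher. Most liver values of these members were not called detected. With the storage temperature as a block in the fit, chosen after seeing the data, 4 of 4 members were called higher in each tissue difference, and the estimates for heart minus liver were 3.53, 1.83, 3.40 and 1.58 in the order a to d.

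Within liver, miR-181b-5p and miR-181d-5p parted from miR-181a-5p at 0 h. On the 0 h arrays miR-181b-5p stood at 3.80 (4 °C) and 3.64 (RT) and miR-181d-5p at 4.21 and 3.66, all detected, while miR-181a-5p stood at 2.52 and 2.30 and was not detected. On the 4 other intact liver arrays the pattern was turned, with miR-181a-5p detected at 2.86 to 3.36 and miR-181b-5p and miR-181d-5p not detected at 1.82 to 2.64. The strand miR-181c-5p was not detected on any intact liver array. It stood at 0.91 (4 °C) and 1.49 (RT) at 0 h and at 1.91 to 2.37 on the 4 others. The 0 h arrays had 268 and 310 detected miRNAs, the fewest of the 45 arrays, and the heart array of 0 h at 4 °C, which was set aside, had 215. On that heart array miR-181a-5p was 3.22 and miR-181d-5p 3.36. The part of this low detection in the liver pattern was not tested.

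Leukocytes also express miR-181, so the summed signal of 4 leukocyte miRNAs (miR-142a-3p, miR-142a-5p, miR-223-3p and miR-150-5p, all on the array) was set beside these levels. It was 408 to 1800 units in intact heart, 147 to 611 in intact liver and 127 to 371 in intact brain. The sums of intact brain and intact liver overlapped, and all 4 markers were detected on every heart and brain array. Over all arrays, the log2 level of miR-150-5p was 5.46 to 7.19 in brain, 5.17 to 7.08 in heart and -0.105 to 4.21 in liver. This marker was lower in liver, as the miR-181 members were, but the ranges of the other markers overlapped between liver and brain. In liver, miR-142a-3p was 2.065 to 10.22, miR-142a-5p 1.639 to 7.325 and miR-223-3p 2.547 to 7.218. The brain ranges were 4.27 to 7.848, 2.717 to 4.409 and 3.033 to 5.212 in the same order. The part of leukocytes in the miR-181 levels was not tested.

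Storage time was compared next, at each temperature. On the deposited values all 4 members fell with storage time at RT, with the steepest slope in miR-181c-5p, and at 4 °C 0 of 4 were called. The log2 level of miR-181c-5p changed by -0.41 ± 0.08 per 24 h at RT (limma with the slide as a term, adjusted p = 8.73e-06). The slopes were -0.29 ± 0.08 for miR-181a-5p (adjusted p = 0.000813), -0.19 ± 0.07 for miR-181b-5p (adjusted p = 0.0128) and -0.19 ± 0.08 for miR-181d-5p (adjusted p = 0.0218). The 4 calls stand against 38.9% of all miRNAs called lower with time at RT. Without any scaling between arrays 0 of 4 were called and the slopes of miR-181a-5p, miR-181b-5p and miR-181d-5p were above 0, at 0.07, 0.19 and 0.19, while the median of all 815 miRNAs was then 0.40 per 24 h instead of 0.07. Relative to that median the members lay lower by 0.21 to 0.45, compared with 0.26 to 0.48 on the deposited values.

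In heart and brain the lowest RT value of every member came at 96 h. In heart at RT miR-181a-5p started from 6.58 (0 h) and 6.38 (1 h), was highest on the 3 h array with 6.86 and the 6 h array with 7.16, and then read 6.09 (12 h), 5.95 (24 h), 6.09 (48 h) and 4.94 (96 h). The 96 h array had a RIN of 2.2, and the 6 h array was the highest heart array for every member. At 4 °C the 7 heart values were 6.17 to 6.69 and the lowest was again at 96 h.

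In brain at RT miR-181a-5p stayed between 9.20 and 9.73 up to 24 h, then read 8.87 at 48 h (RIN 5.5) and 8.19 at 96 h (RIN 3.3). Up to 24 h miR-181c-5p was 6.69 to 7.65, with its lowest value at 0 h, followed by 6.80 at 48 h and 5.98 at 96 h. The 8 brain arrays at 4 °C ranged from 8.92 to 9.59 for miR-181a-5p and from 6.74 to 7.53 for miR-181c-5p. Only the 48 h and 96 h arrays at RT lay below the 4 °C range of miR-181a-5p.

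In liver at RT miR-181a-5p was 2.30 on the 0 h array, 3.10 (1 h) and 3.23 (3 h) on the next, then 2.32 (6 h), 2.02 (12 h), 1.42 (24 h) and 0.42 (48 h), and 2.82 on the 96 h array. The 0 h and 48 h values were not called detected, and the 96 h array went against the run of the earlier ones. Without it the RT slope of miR-181a-5p over all tissues was -0.46 instead of -0.29 per 24 h. Detection of the b and d strands returned late in liver at RT, with miR-181b-5p called at 6, 24, 48 and 96 h and miR-181d-5p at 24, 48 and 96 h, at levels between 1.40 and 2.58. For miR-181c-5p only the 3 h array (2.25) was called detected, so the liver part of its RT slope over all tissues rests on values near background.

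**Figure D2:**
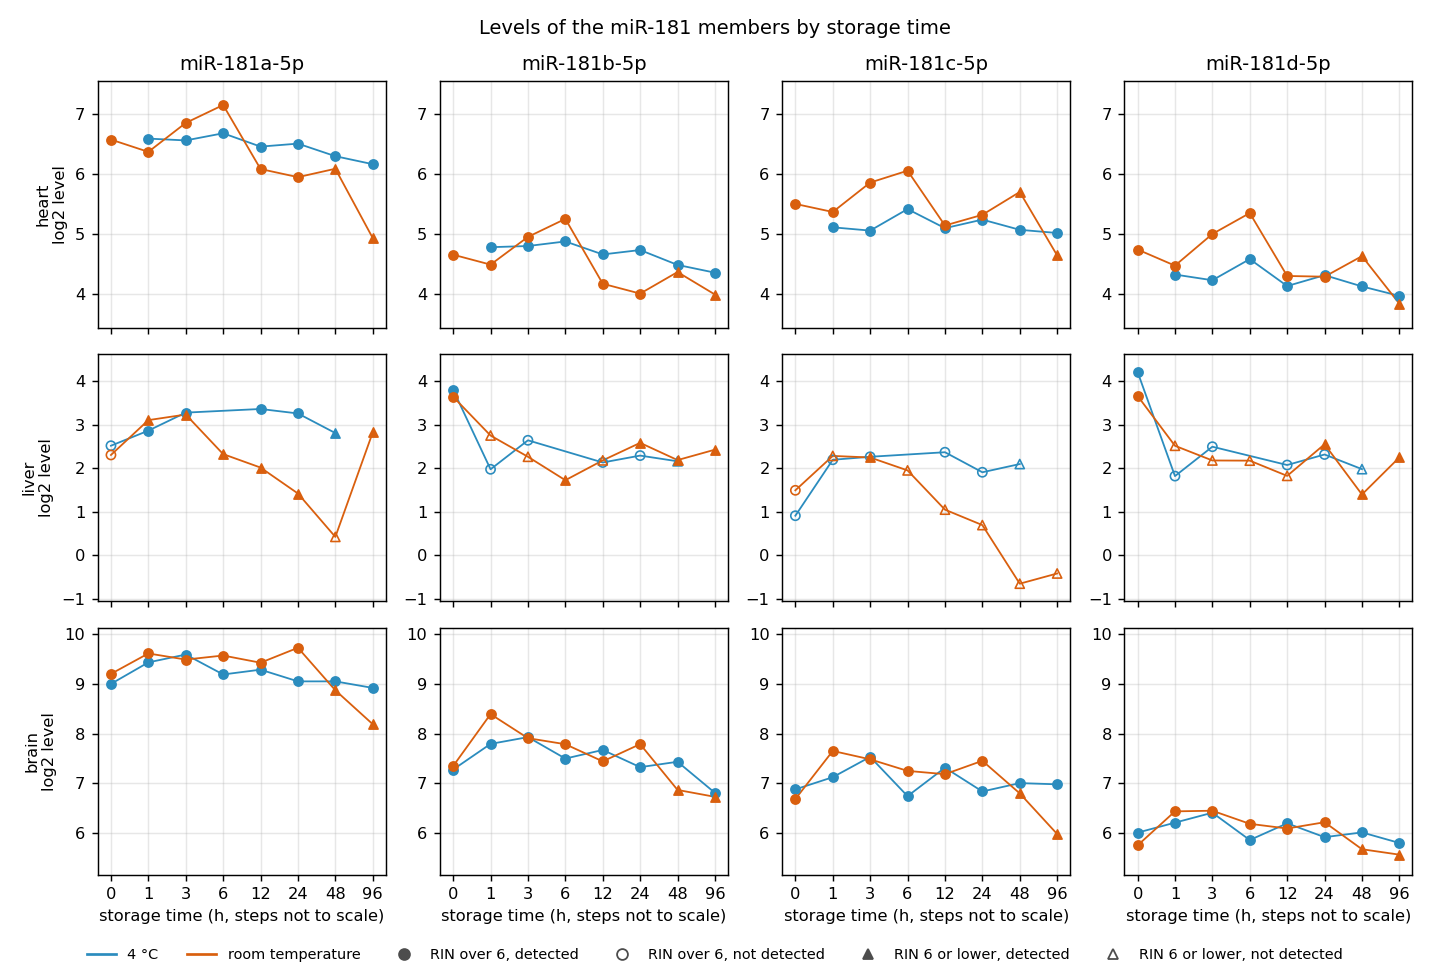
Log2 level (y axis) of the 4 members (columns) against storage time in h (x axis, steps not to scale) in heart, liver and brain (rows), with 4 °C in blue and RT in orange. Each point is 1 array, open symbols were not called detected and triangles have a RIN of 6 or lower. The late RT arrays of brain are the lowest of their panels for miR-181a-5p, and the liver values of miR-181b-5p and miR-181d-5p are highest at 0 h.

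At 4 °C the slopes per 24 h were -0.10 (95% interval -0.28 to 0.08) for miR-181a-5p, -0.18 (-0.35 to -0.02) for miR-181b-5p, -0.02 (-0.19 to 0.16) for miR-181c-5p and -0.13 (-0.30 to 0.05) for miR-181d-5p. By limma 0 of 4 were called and 0.123% of all miRNAs were called lower. Before adjustment 1 member, miR-181b-5p, was below 0.05 in the limma fit (adjusted p = 0.307). The slope at RT minus that at 4 °C was called for 1 of 4 members, miR-181c-5p, at -0.39 ± 0.12 per 24 h (adjusted p = 0.00774), and for 28.0% of all miRNAs in this direction. The same difference was -0.20 ± 0.12 in miR-181a-5p, -0.01 ± 0.11 in miR-181b-5p and -0.06 ± 0.12 in miR-181d-5p. Without scaling the difference of miR-181c-5p was -0.08 and lay 0.41 below the median of all miRNAs, but it was not called, while that of miR-181b-5p was 0.34 and called higher (adjusted p = 0.0418).

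RNA integrity was the other axis of the study. Across the 45 arrays, with tissue as a term, all 4 members were higher at higher RIN on the deposited values, and lower at higher RIN when the signals were left unscaled. The deposited values gave 0.19 ± 0.04 log2 units per RIN unit for miR-181a-5p (limma, adjusted p = 1.26e-05), 0.12 ± 0.03 for miR-181b-5p (adjusted p = 0.00153), 0.15 ± 0.04 for miR-181c-5p (adjusted p = 0.00183) and 0.12 ± 0.04 for miR-181d-5p (adjusted p = 0.00307). These 4 of 4 calls compare with 35.2% of all miRNAs called higher at higher RIN. The unscaled slopes were -0.01 for miR-181a-5p, -0.10 for miR-181b-5p, -0.06 for miR-181c-5p and -0.10 for miR-181d-5p, with 0 of 4 called.

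The sign of this slope over all tissues thus turned with the scaling, and its side of the median of all miRNAs did not. The median slope of all 815 miRNAs was -0.03 on the deposited values, -0.22 without scaling and 0.21 after normexp correction. All 4 members lay above the median in each of the 6 scalings, by 0.15 to 0.22 on the deposited values, by 0.12 to 0.21 without scaling and by 0.01 to 0.04 after normexp correction. For the slope at RT all 4 lay below the median in 5 of the scalings, and after normexp correction miR-181d-5p lay 0.01 above it.

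**Figure D3:**
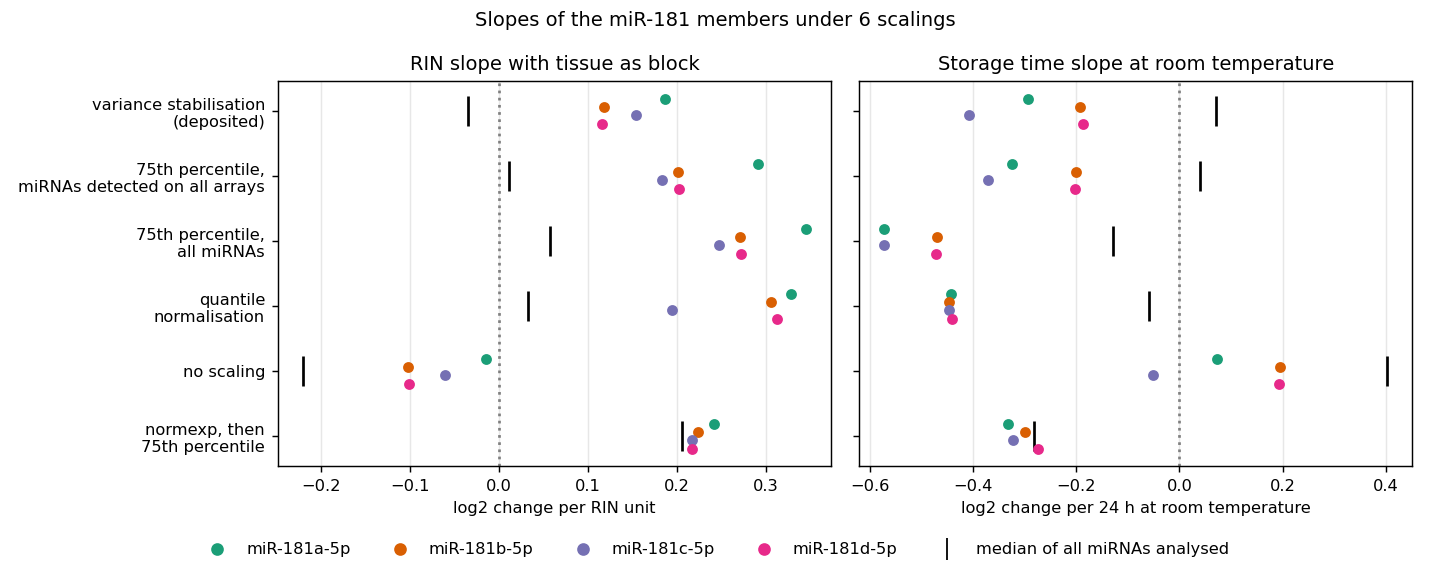
Slopes of the 4 members under 6 scalings of the arrays, as log2 change per RIN unit with tissue as a term (left) and per 24 h at RT (right). Coloured points are the members and the black bar is the median of the 815 miRNAs. With no scaling the RIN slopes of all members and the RT slopes of 3 members change sign, while the members keep to the same side of the median there.

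The unscaled signals show the same values from another side. In brain the signal of miR-181a-5p was 653 units at 48 h and 631 units at 96 h of RT, within the 423 to 882 units of the 14 intact arrays. In heart it was 113 and 62.3 units, against 56.5 to 135 units on the 13 intact arrays. Signals of miR-181b-5p on the degraded heart arrays were 33.2 and 31.8 units, inside the intact range of 13.6 to 35.6 and near its top. Other signals rose above the intact range. In heart at 48 h of RT miR-181c-5p had 86.3 units (intact highest 62.8) and miR-181d-5p 40.3 units (intact highest 38.1). At 96 h they had 50.8 and 28.5 units, inside the range. In brain at 96 h of RT miR-181d-5p had 101 units (intact highest 96.2). The number of detected miRNAs was 589 and 683 on these degraded heart arrays and 688 and 798 on those of brain, compared with 374 to 490 and 491 to 593 on the intact ones.

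Over the 33 arrays with a RIN over 6, where RIN spans a smaller range, 0 of 4 members and 2 of all 815 miRNAs were called. The slopes there were 0.10, 0.21, -0.07 and 0.23 in the order a to d, so that those of miR-181b-5p and miR-181d-5p were larger than over all arrays and that of miR-181c-5p had the other sign. With the slide in place of tissue, all 4 members were still called, at 0.19, 0.17, 0.15 and 0.17 in the same order. RIN and storage time were not fitted together, and the part of each in these slopes was not tested.

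**Figure D4:**
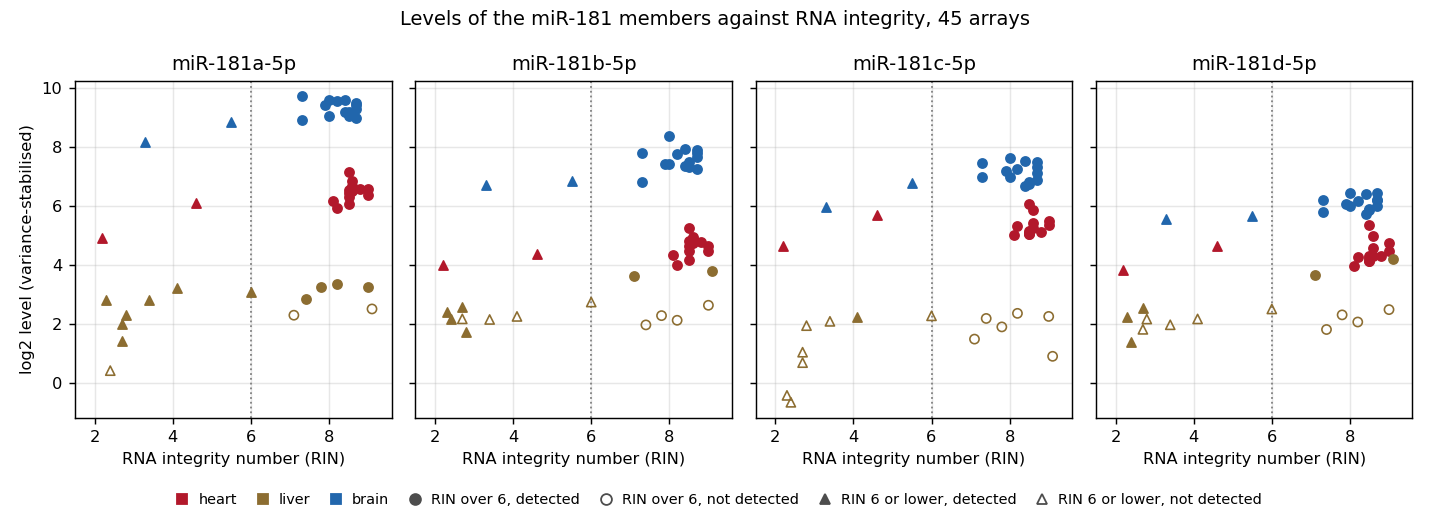
Log2 level (y axis) of each member against RIN (x axis) on the 45 arrays, coloured by tissue, with triangles for a RIN of 6 or lower (left of the dotted line) and open symbols where the member was not called detected. Heart and brain have 2 arrays each at low RIN, and liver has 8. The slopes drawn from these values change sign without scaling between arrays.

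Separate slopes for each tissue left fewer calls outside liver. In heart only miR-181a-5p was called (0.21 ± 0.07 per RIN unit, adjusted p = 0.0105), with 14.4% of all miRNAs called higher, and without the heart array of 96 h at RT its slope was 0.12 and was not called. The other members had heart slopes of 0.10 ± 0.06 (miR-181b-5p), 0.06 ± 0.08 (miR-181c-5p) and 0.07 ± 0.07 (miR-181d-5p). Without the same array the slope of miR-181c-5p was -0.07 and that of miR-181d-5p -0.02.

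In liver all 4 were called, against 24.3% of all miRNAs, and with the slide in place of tissue 2 of 4 were, miR-181b-5p and miR-181d-5p. The slopes were 0.17 ± 0.05 for miR-181a-5p (adjusted p = 0.00239), 0.10 ± 0.05 for miR-181b-5p (adjusted p = 0.0404), 0.20 ± 0.06 for miR-181c-5p (adjusted p = 0.00409) and 0.14 ± 0.05 for miR-181d-5p (adjusted p = 0.00874). Without the 0 h array at 4 °C, miR-181b-5p had 0.06 and miR-181d-5p 0.08, and neither was called. Without the 48 h array at RT, the slope of miR-181a-5p was 0.11. The liver levels behind these slopes were called detected on 11, 6, 1 and 5 of the 14 arrays for miR-181a-5p to miR-181d-5p.

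In brain the slopes were of like size, 0.19 ± 0.09, 0.19 ± 0.08, 0.18 ± 0.10 and 0.12 ± 0.08 for miR-181a-5p to miR-181d-5p. Only that of miR-181b-5p was called (adjusted p = 0.0444, that of miR-181a-5p 0.0762), with 13.3% of all miRNAs. Leaving out the brain array of 96 h at RT gave 0.10 for miR-181a-5p and 0.06 for miR-181c-5p. A test of whether the slopes differ between the tissues was passed by 0 of 4 members (limma F test, smallest unadjusted p = 0.387, for miR-181c-5p), and by 5.52% of all miRNAs. All within-tissue slopes other than that of miR-181a-5p in heart turned negative without scaling. After normexp correction some slopes lay below the median of all miRNAs. In heart the distance was -0.03 for miR-181c-5p and -0.0035 for miR-181d-5p, and in brain -0.024 for miR-181d-5p.

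The 8 liver arrays with a RIN of 6 or lower were also set against the 6 with a higher RIN. Mean log2 levels were lower in degraded liver by 0.66 for miR-181a-5p, 0.46 for miR-181b-5p, 0.70 for miR-181c-5p and 0.65 for miR-181d-5p, and without scaling each was higher instead. The exact 2-sided Wilcoxon-Mann-Whitney test called 0 of 4 (unadjusted p from 0.108 to 0.491, adjusted p from 0.21 to 0.683), with 2.94% of all miRNAs called lower. The degraded group spread widely, from 0.42 to 3.23 for miR-181a-5p and from -0.65 to 2.28 for miR-181c-5p.

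The balance between members on the same array does not depend on scaling. In intact heart the log2 ratio of the miR-181a-5p signal to the miR-181b-5p signal lay between 1.81 and 2.05 on 13 arrays, and it was 1.77 at 48 h and 0.97 at 96 h of RT. The ratio of miR-181a-5p to miR-181d-5p was 1.74 to 2.41 in intact heart, then 1.49 and 1.13. That to miR-181c-5p was 0.65 to 1.54, then 0.39 and 0.30. All 3 ratios were below the intact range on both degraded heart arrays, so the signals of the members had changed unequally. These arrays are 1 animal without replicates, and no test was made.

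In brain most of the same ratios stayed inside the intact range, which was wider than in heart for the ratio to miR-181b-5p. The ratio of miR-181a-5p to miR-181b-5p was 1.22 to 2.12 on 14 intact arrays and 2.01 and 1.47 at 48 h and 96 h of RT. That to miR-181c-5p was 1.95 to 2.53 and then 2.08 and 2.22, inside the intact range. The ratio to miR-181d-5p was 3.01 to 3.53, then 3.22 and, at 96 h, 2.64, which was below the intact range. Ratios from 2 probes each are not ratios of molecules, and only their change between arrays can be read.

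**Figure D5:**
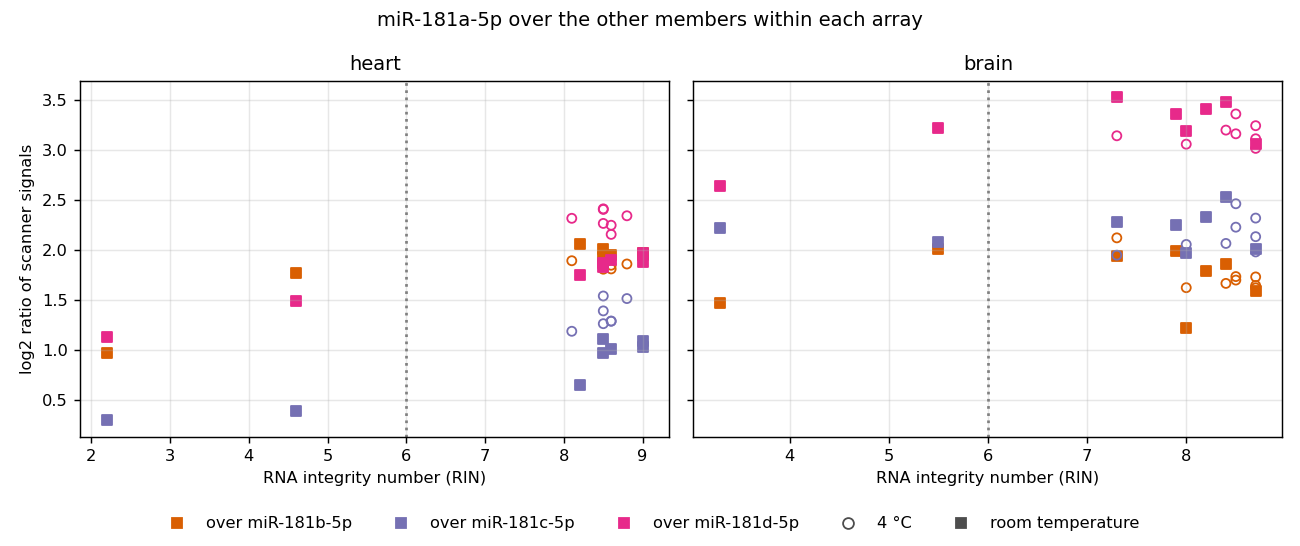
Log2 ratio of the scanner signal of miR-181a-5p to that of each other member on the same array (y axis) against RIN (x axis), in heart (15 arrays) and brain (16 arrays), open for 4 °C and filled for RT. On the degraded heart arrays (RIN 4.6 and 2.2) all 3 ratios lie below those of the intact heart arrays, and in brain only the ratio to miR-181d-5p at RIN 3.3 does.

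The passenger arms come from the same hairpins as the guide strands and are mostly discarded during loading. Only 2 of the 6 on the array were analysed, so they give no readout of every locus. The 2 arms that were analysed are printed here with bases 2 to 8 in capitals, because they are separate products of the hairpins. The arm miR-181a-1-3p comes from 1 of the 2 loci of its guide strand, and both arms have the same bases 2 to 8. Whether the probes of 1 arm also bind the other was not tested.
miR-181a-1-3p: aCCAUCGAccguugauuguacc
miR-181c-3p: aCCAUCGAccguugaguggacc

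The other 4 arms (miR-181a-2-3p, miR-181b-1-3p, miR-181b-2-3p and miR-181d-3p) were called detected on 0 of 45 arrays. The chromosome 1 arm miR-181a-1-3p was detected on 16 of 16 brain, 11 of 15 heart and 0 of 14 liver arrays. Its log2 level had a mean of 5.22 ± 0.45 on 14 intact brain and 2.58 ± 0.38 on 13 intact heart arrays, a difference of 2.64 ± 0.17 (limma, adjusted p = 6.06e-16). On the deposited values its brain level was 11.5-fold above the floor of the intact liver arrays, formed as for miR-181c-5p. It was also the arm that followed RIN and storage, with 0.27 ± 0.04 per RIN unit (adjusted p = 1.20e-08) and -0.45 ± 0.07 per 24 h at RT (adjusted p = 7.09e-07) on the deposited values. Its slope at RT minus that at 4 °C was -0.31 ± 0.11 (limma, adjusted p = 0.0209), a direction called for 28.0% of all miRNAs. In brain at RT it read between 4.92 and 6.25 up to 24 h, and then 4.50 at 48 h and 3.80 at 96 h. Its unscaled signals on these late arrays were 30.4 and 28.9 units, inside the 21.1 to 69.4 units of intact brain.

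By contrast, miR-181c-3p was called detected on 5 of 45 arrays, all of them intact brain, where its 14 values ran from 1.15 to 2.22. Its RIN slope was -0.03 ± 0.07 (adjusted p = 0.733) and its RT slope 0.05 ± 0.16 (adjusted p = 0.761), and neither was called. The 95% intervals were -0.17 to 0.12 for the RIN slope and -0.25 to 0.36 for the RT slope, and the values of its guide strand, 0.15 and -0.41, lay outside them. The difference between the strands was not tested, and most values of this arm were not called detected.

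The members varied together across the 45 arrays, and the likeness was mainly one of tissue. Pearson's r between pairs of members ran from 0.908 (miR-181b-5p with miR-181c-5p) to 0.976 (miR-181a-5p with miR-181c-5p) over all arrays, which share slides and tissues. Within liver r was 0.920 for b with d, 0.737 for a with c and -0.007 for a with b, over values of which most were not called detected. Within heart the closest pair was c with d (r = 0.962), and within brain c with d (r = 0.919) and b with d (r = 0.918) were about as close.

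Of the 811 other miRNAs analysed, those most like the mean of the 4 members over the 45 arrays were miR-204-5p (r = 0.982), miR-218-5p (0.968), miR-135a-5p (0.964), miR-674-3p (0.961) and miR-181a-1-3p (0.961). In all, 36 had an r above 0.9. After the mean of each tissue was subtracted, the 5 most alike were miR-532-3p (r = 0.864), miR-181a-1-3p (0.841), miR-369-5p (0.814), miR-434-3p (0.806) and miR-872-3p (0.805), and 0 were above 0.9. These 5 were called detected on 18, 27, 16, 21 and 16 of the 45 arrays in this order, so many of their values were not called detected. The passenger arm of Mir181a-1 was the only miRNA on both lists. These correlations are over arrays of shared animals and slides and are given as a description.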

How the data were processed

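Per the file headers, scanner signals (intensity) came from Agilent Feature Extraction 10.10.1.1, with a detection call for each miRNA. The authors deposited log2 values of these background-corrected intensities after variance stabilizing normalization. An arcsinh curve per array turned the scanner signals into these values to within 1.14e-05 log2 units on 46 arrays, with array medians of 0.135 to 0.931. 1 heart array (4 °C, 0 h), which the study removed for its array quality, was left out, and liver at 4 °C after 6 h and 96 h was not analysed here. Slopes and tissue differences were fitted with limma 3.58.1 (R 4.3.3) on 815 miRNAs detected on at least 5 of 45 arrays. Adjusted p-values are Benjamini-Hochberg values over all 815, called below 0.05. Tissue differences used intact arrays with the slide as a random block (consensus correlation 0.0203), RIN slopes used tissue, and time slopes used the slide. Labels give 12 h where the methods give 14 h. Scripts were tested on simulated data. Alternatives were scaling, background, filter, adjustment and arrays. The members, the marker miRNAs and the tests were chosen with earlier results of these data known. The text names the members, their passenger arms and the 5 closest miRNAs by correlation. The number of arrays limits the precision.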

Additional observations from a re-analysis of the deposited data

Results flagged for a closer look

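On the liver slide of 4 °C, the 0 h array stood apart from the other 5 for 3 of the 4 members, by the gap to its nearest neighbour relative to the range of the group. For miR-181b-5p it was the highest at 3.80 (next 2.64), for miR-181d-5p the highest at 4.21 (next 2.49), and for miR-181c-5p the lowest at 0.91 (next 1.91). In all, 24 sets of arrays were examined in this way and chance alone gives about 1 such array in 20 sets. This array had 268 detected miRNAs, fewer than any other of the 45, and the part of that in its values was not tested.

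For miR-181c-5p the storage time slope at RT minus that at 4 °C was -0.39 ± 0.12 log2 units per 24 h (limma, adjusted p = 0.00774). It ran from -0.44 to -0.35 when single arrays were left out. The liver arrays are part of this fit, and miR-181c-5p was called detected on 1 of 14 of them. Without scaling between arrays it was -0.08 and was not called, and Bonferroni adjustment left 0 calls. Animal, slide and temperature cannot be told apart in this difference.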

How the results depend on the processing

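In each setting tried, 4 of 4 members were called in the tissue differences, except in heart minus liver after normexp correction, which was -0.35 for miR-181b-5p, -0.44 for miR-181d-5p and, not called, 0.03 for miR-181c-5p (median of all 815 miRNAs -0.77). The RIN and time results depended on the scaling. No scaling gave 0 members called for the RIN slopes with tissue as a term and within heart, liver and brain, and 0 for the RT slope. In the order of the letters, its RIN slopes were -0.014, -0.10, -0.061 and -0.10 with tissue as a term, -0.11, -0.15 and -0.14 (b to d) in heart, -0.017, -0.12, -0.019 and -0.076 in liver, and -0.033, -0.029, -0.040 and -0.11 in brain. Its RT slopes were 0.072 (a), 0.19 (b) and 0.19 (d), that of miR-181c-5p at 4 °C was 0.026, RT minus 4 °C was 0.12 (a), 0.34 (b) and 0.29 (d), and degraded minus intact liver was 0.28, 0.62, 0.34 and 0.39. Within heart and within brain, 2 members each were called with the 75th percentile of commonly detected miRNAs, 4 with that of all miRNAs, 3 with quantile normalization and 4 with normexp. Of all 815 miRNAs, in either direction, 394, 417, 406 and 698 were called within heart in this order. Within brain these counts were 414, 421, 371 and 605. RT minus 4 °C had 2 calls with the 75th percentile of all miRNAs, quantile normalization or normexp, and degraded liver 1 with the percentile of commonly detected miRNAs and 4 with normexp. With the percentile of commonly detected miRNAs the RT slope had 2 calls (628 of all miRNAs) and RT minus 4 °C of miR-181b-5p was 0.046. Bonferroni adjustment left 1 call for the RIN slope (409 of all miRNAs) and 1 for the RT slope (436 of all). It left 0 within heart, liver and brain and for RT minus 4 °C. With all 46 arrays, 0 were called within heart and 0 within brain, miR-181c-5p had -0.0021 within heart, and the 4 °C slopes were 0.014 (a) and 0.091 (c). With a RIN over 6 alone, 0 were called and miR-181c-5p had -0.073. The slide as intercept left 2 calls within liver (436 of all miRNAs) and gave 2 within brain (319 of all). Time as log2(hours + 1) or as ranks gave miR-181c-5p 0.023 and 0.020 at 4 °C. Without both liver arrays of 0 h, chosen after seeing the data, 2 were called within liver (648 of all miRNAs). Degraded minus intact liver was then 0.024 for miR-181b-5p. Leaving out single arrays gave 0 to 1 calls within heart (0 without 96 h at RT), 2 to 4 within liver (2 without 0 h at 4 °C), 0 to 2 within brain and 1 to 2 for RT minus 4 °C (2 without liver at 96 h and RT). In those fits miR-181c-5p within heart ran from -0.075 to 0.11, miR-181d-5p from -0.017 to 0.10, and miR-181b-5p for RT minus 4 °C from -0.071 to 0.025. The cause was not tested. Normexp used the median spot signal, and signals near background limit liver.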
